A study of Mus musculus with 48 samples.

Results

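The genes described here encode the proteins of the cytosolic ribosome in mouse duodenum and ileum during the first weeks of life. A member is any gene whose symbol is Rpl or Rps followed by a number and, at most, the letters a, l or x, together with Rplp0, Rplp1, Rplp2 and Rpsa. Of 54532 gene identifiers, 84 had such a symbol. Rps4l, Rpl6l and Rpl32l among them are annotated as pseudogenes and were left out, which gave 81 members, 31 of the small and 50 of the large subunit. Members were picked by name and gene annotation, without a threshold on any measured value, though with earlier results of these data known.

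The study followed RNA along the small intestine of C57Bl/6J mice over the age window in which newborn bowel is prone to necrotizing enterocolitis. Pieces 2 cm long, of duodenum just beyond the pylorus or of ileum just before the caecum, were homogenized whole and their total RNA sequenced. Mice were taken at day 0, 2, 4, 6 and 8 and at week 2, 3 and 4, which makes 8 ages, and each region has 3 labelled samples of every age, 48 in all. No group carried a mutation or a treatment. The mice were of both sexes, were left with the dam for 21 days before moving to chow, and the labels word their housing as standard germ-free. A litter usually supplied a few of the ages. Nothing states whether samples of a group came from separate litters, so a p-value measures only the spread between these samples. The samples numbered 3 of day 6 were left out of both regions by the rule for the members, which leaves 46 samples. The region of these left-out samples is held in doubt. Their regional marker values are not reported here, and their member shares are given below.

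A ribosome is built from ribosomal RNAs and a single copy of nearly every ribosomal protein, so the cell has to make the proteins in matching amounts. Most vertebrate ribosomal protein mRNAs begin with a cytosine followed by an unbroken run of pyrimidines, the 5′ terminal oligopyrimidine (TOP) tract, through which the growth kinase mTOR and the RNA-binding protein LARP1 set their translation and stability. In the small intestine, ribosome production is known to be high in the dividing cells of the crypts, and it is lower in the differentiated cells of the villus. Crypts form after birth in the mouse.

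The start sites below are shown because the TOP tract is a known feature of these mRNAs, and were picked to show starts with and without a pyrimidine run near them. Each line gives 15 bases before and 15 from the annotated start, 5′ to 3′ on the gene's strand, from RefSeq on GRCm38.p6. Capitals mark a run of at least 6 pyrimidines that starts with C and lies within 20 bases of the start.
Rps6, chr4:86857353-86857382 (minus strand): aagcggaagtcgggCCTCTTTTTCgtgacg
Rps27, chr3:90213634-90213663 (minus strand): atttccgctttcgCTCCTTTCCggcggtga
Rplp2, chr7:141447636-141447665 (plus strand): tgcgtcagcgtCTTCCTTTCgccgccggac
Rpl38, chr11:114668565-114668594 (plus strand): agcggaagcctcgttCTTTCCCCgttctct
Rpl12, chr2:32961697-32961726 (plus strand): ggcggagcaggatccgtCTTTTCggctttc
Rpl13a, chr7:45128731-45128760 (minus strand): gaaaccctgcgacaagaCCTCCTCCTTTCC
Rps27l, chr9:66946071-66946100 (plus strand): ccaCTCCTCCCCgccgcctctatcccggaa
Rpl36al, chr12:69184053-69184082 (minus strand): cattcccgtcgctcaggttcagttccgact

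The run begins within a few bases of the start in Rps6, Rps27, Rplp2, Rpl38, Rpl12 and Rpl13a, lies upstream of it in Rps27l, and is not found in this window of Rpl36al. The same 30 bases held no such run at the starts of Rplp0, Rpsa, Rpl5, Rpl11, Rpl10, Rpl27 and Rpl22, nor at a second start of Rps27l, which are not printed. These windows follow the RefSeq start alone, and a tract at another start would not be seen. The GENCODE M21 gene start of Rpl27, chr11:101442298, lies outside its window, chr11:101442230-101442259. RefSeq start windows were matched for 61 of the 81 members, 73 windows in all, each running from 250 bases before to 50 bases after a start. On the gene's strand, such a pyrimidine run near the start was present in 57.5% of the members' windows, against 29.4% of all 32851 windows. The letters CCGGAAG, the core bound by ETS family factors such as GABPA, occurred on either strand in 35.6% of the members' windows and in 8.86% of all windows. CACGTG, the E-box that MYC can bind, occurred in 11% of the members' windows against 7.15% of all. TATAAA, a core promoter element, occurred in 8.22% against 13.6%. CCGGAAG read on the opposite strand holds pyrimidines that can be part of a counted run, and a match describes the sequence and not a bound factor.

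Libraries held 16824021 to 65042327 estimated counts, of which mitochondrial transcripts took 13.1% to 35.2%. Levels are given as CPM, counts per 1000000 of the library after scaling by the trimmed mean of M values. The summed CPM of 5 epithelial markers (Epcam, Vil1, Krt8, Krt20 and Cdh1) was 2709 to 11126, whereas that of 5 smooth muscle markers (Myh11, Acta2, Tagln, Cnn1 and Des) was 4.2 to 39.3 in the duodenum and 10.85 to 158 in the ileum, low for tissue labelled whole thickness. Onecut2 and Pdx1 were high in duodenum and Fabp6, Slc10a2 and Fgf15 in ileum. At day 0 some libraries were less far apart. Onecut2 and Pdx1 summed to 135.6 CPM in duodenum number 1 and 96.3 CPM in ileum number 2. In the other ileum libraries of that age they summed to 0.48 and 20.6 CPM. The ileal markers summed to 30.4 CPM in that duodenum library and 68.7 CPM in ileum number 2. The library labelled ileum week 4 number 1 stood apart, with 3 ileal markers summing to 109.7 CPM against 2000.04 and 2303 in the other ileum libraries of that age. Day 4 libraries numbered 3 in the duodenum and 2 in the ileum stood above the rest of their groups in member levels, as given below.

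Ribosomal protein mRNA rose in the duodenum over the first days after birth, peaked between day 4 and day 8 and came part of the way down by week 2. The ileum followed only faintly. The members together took 1.92, 1.94 and 2.37% of the non-mitochondrial counts in the 3 duodenum samples of day 0 and 1.86, 2.00 and 2.08% at day 2. The share then stood at 2.97, 3.79 and 6.00% at day 4, 4.88 and 5.56% in the retained samples of day 6 and 4.22, 4.41 and 4.40% at day 8. All duodenum samples of day 4, day 6 and day 8 lay above all of day 0 and day 2. It was 2.50, 3.25 and 3.09% at week 2, 2.95, 3.12 and 3.21% at week 3 and 3.05, 1.64 and 2.21% at week 4.

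In the ileum the share began at the same place, 2.37, 2.21 and 2.04% at day 0, and was 1.66, 1.68 and 1.80% at day 2. Day 4 gave 1.52, 3.45 and 2.28%, day 6 gave 2.31 and 2.11% in its retained samples, and day 8 gave 3.50, 2.39 and 2.53%. The later ages gave 1.86, 2.07 and 1.88% at week 2, 2.22, 2.12 and 1.47% at week 3 and 1.52, 1.57 and 2.24% at week 4. Apart from single high samples at day 4 and day 8 the ileal values stayed within a narrow band, and only the day 8 samples all lay, just, above those of day 0. The day 6 samples left out held 2.05% under a duodenum label and 4.33% under an ileum label, each nearer to the day 6 samples of the other region.

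**Figure D1:**
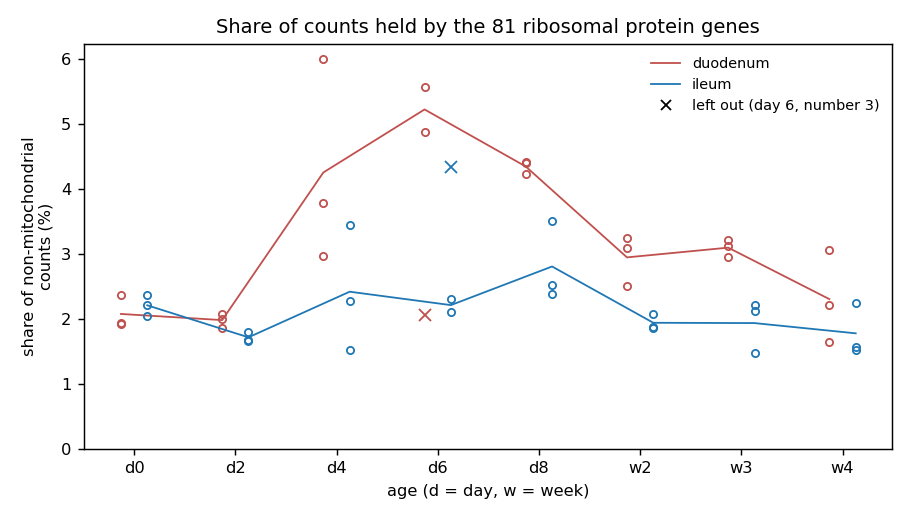
Share of non-mitochondrial counts (percent, vertical axis) held by the 81 members at each age (horizontal axis), one open circle per sample, with lines through the group means (duodenum red, ileum blue) and crosses for the day 6 samples left out. Duodenum samples run from 1.64% to 6.00% with a peak from day 4 to day 8, and ileum samples from 1.47% to 3.50%.

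Over all ages the share was 3.19% ± 1.23 (SD, n = 23) in the duodenum and 2.12% ± 0.529 (SD, n = 23) in the ileum. The difference of -1.07 percentage points had p = 1e-05 in a two-sided permutation test that exchanged region labels within ages, the smallest value that 100000 resamples can give. Samples of week 3 and 4 were compared with all earlier ones, since pups leave the dam at day 21. Whether week 3 samples came before or after that move is not stated. The earlier samples span day 0 to week 2, with duodenal group means from 1.98% at day 2 to 5.22% at day 6. Their SD and the p-values of this comparison therefore include the age course, and do not measure a step at that move alone. The duodenal share was 2.70% ± 0.629 (SD, n = 6) against 3.37% ± 1.35 (SD, n = 17), with p = 0.257 in a two-sided exact permutation test. In the ileum it was 1.86% ± 0.372 (SD, n = 6) against 2.22% ± 0.552 (SD, n = 17), with p = 0.124 in the same exact test. Neither difference passed this test, but with all counts as the denominator the ileal difference, -0.348 percentage points, had an exact permutation p of 0.0396. In tissue RNA of this kind, fewer cells that make much ribosomal protein mRNA and less of it per cell cannot be told apart.

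Gene by gene, all 78 members with enough counts to test varied with age in the duodenum by edgeR's quasi-likelihood test, at an adjusted p under 0.05 (Benjamini-Hochberg over 21986 genes; such genes are called below). Of all genes tested, 67.4% were called there. In the ileum 13 members were called, and 18 had an unadjusted p under 0.05, against a background of 58.7%. Rpl10l, Rpl39l and Rpl3l were under the low-count filter, with 11, 29 and 34 counts over the 46 libraries used. RPL10L and RPL39L are testis forms of RPL10 and RPL39, and RPL3L is a form of heart and skeletal muscle.

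Duodenal group means were highest at day 6 for 52 of the 78 tested members and at day 4 for 21. Rpl35, Rpl5 and Rps12 had their highest mean at day 8 and Rps27l at week 4. Means were lowest at day 2 for 66 members and at day 0 for 10, and Rpl13a was lowest at week 4. The highest mean was 2.64 times the lowest in the median member, from 1.90 times for Rpl13a to 3.35 times for Rpl36a. The median member stood at 2.12 times its day 0 mean at day 4, 2.27 times at day 6 and 2.11 times at day 8. By week 2 this was 1.42 times, with 1.57 times for week 3 and 1.29 times for week 4. In the ileum the same ratio of highest to lowest mean was 1.56 in the median member and 3.71 for Rps12. The ileal maximum fell at day 8 for 33 members and at day 4 for 32, where the library numbered 2 stood far above the others, with member sums of 12090, 27614 and 15584 CPM. Members that were highest in the ileum at day 0, where they had begun, included Rpl10, Rpl13a, Rpl17, Rpl28, Rps15 and Rps28.

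The first comparison set day 8, in the suckling period, against the day of birth. In the duodenum 75 members rose and none fell, against 22.0% of all genes that rose, and all 78 had a positive log2 fold change with a median of 1.08 (all genes: -0.06). Of the small subunit, 30 of 31 rose with a median of 1.09, and of the large subunit 45 of 47 with a median of 1.07. Rpl10 and Rpl28 were among those not called, at log2 fold changes of 0.50 ± 0.21 and 0.48 ± 0.24 (SE).

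Rps6, the small-subunit protein phosphorylated by S6 kinases, had 304, 348 and 375 CPM at day 0 and 848, 862 and 888 CPM at day 8 in the duodenum. Groups were far apart, and the log2 fold change was 1.34 ± 0.27, adjusted p = 9.51e-05. Rpsa, which doubles as a laminin receptor and helps mature the small subunit, went from 357, 345 and 609 to 997, 984 and 1005 CPM. One of its day 0 samples lay well above the others but below all of day 8, and the log2 fold change was 1.19 ± 0.27, adjusted p = 0.000542. Rps19, a small-subunit gene mutated in Diamond-Blackfan anaemia, went from 99.4, 104 and 129.8 to 244, 239 and 244 CPM, also without overlap, and rose by 1.13 ± 0.24 on the log2 scale.

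Of the large subunit, Rpl12 rose most on the log2 scale among all members. RPL12 sits at the base of the stalk that recruits elongation factors. Its level was 19.5, 15.98 and 20.3 CPM at day 0 and 55.9, 57.6 and 55.2 CPM at day 8, a log2 fold change of 1.59 ± 0.22, adjusted p = 1.91e-07. The stalk genes themselves rose too. Rplp0, the stalk anchor, went from 449.5, 444 and 537 to 1063, 1079 and 1117 CPM, a log2 fold change of 1.19 ± 0.25, adjusted p = 0.000203. Rplp1 and Rplp2, which form the pairs that extend the stalk, rose by 1.36 ± 0.27 and 0.99 ± 0.25. Groups did not overlap for any of the 3.

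Rpl5 and Rpl11, whose proteins travel with a ribosomal RNA to the large subunit and can also bind MDM2, rose by 1.04 ± 0.18 and 1.18 ± 0.24 on the log2 scale. Rpl5 had 47.8, 47.3 and 62.2 CPM at day 0 and 111, 110.3 and 103 CPM at day 8. Rpl38, linked to translation of Hox mRNAs, rose by 0.87 ± 0.26, and Rpl13a, which also acts in an interferon-induced translational silencing complex, by 0.67 ± 0.22. Rpl27 followed Rpl12 in size of rise, at 1.49 ± 0.37, adjusted p = 0.00113. Rps12, a protein of the small subunit's head, came next at 1.48 ± 0.49, adjusted p = 0.0148, but with wide spread, from 81.7, 31.8 and 107 CPM at day 0 to 230.4, 225 and 161 CPM at day 8. Its adjusted p was 0.0981 by edgeR without the day 0 sample numbered 2. The number of risen members was 69 to 76 when single libraries were left out.

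**Figure D2:**
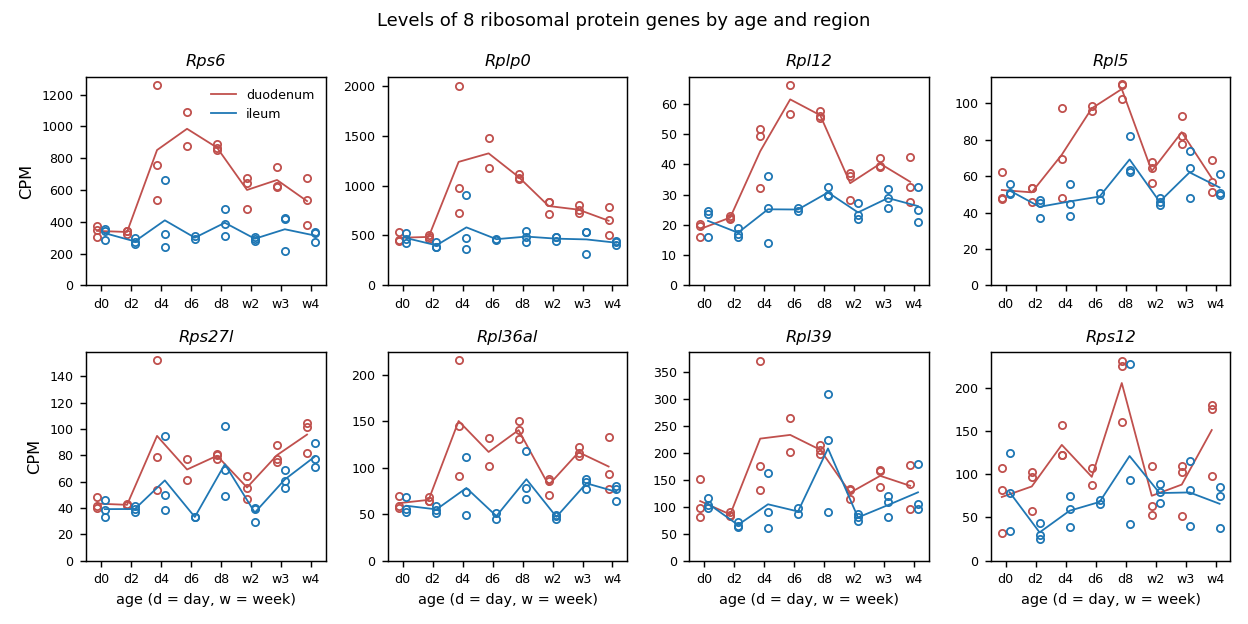
CPM (vertical axis, from 0) of 8 members by age (horizontal axis), one circle per sample and lines through group means (duodenum red, ileum blue). Rps6, Rplp0 and Rpl12 share the duodenal peak, Rps27l has its highest duodenal mean at week 4, and Rpl39 has 2 of 3 ileum day 8 samples (310.4 and 225 CPM) far above the third.

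The ileum showed little of this over the same days. Between those ages 2 members rose (8.56% of all genes) and 1 fell (10.7% of all genes), and the median log2 fold change was 0.17 (all genes: 0.01). Rps6 had 356, 344 and 284 CPM at day 0 and 480.3, 389 and 312 CPM at day 8. These groups overlapped, and the log2 fold change was 0.26 ± 0.26 with an adjusted p of 0.53. Rplp0, at 527, 466 and 427 CPM and then 548, 489 and 429.5 CPM, had a log2 fold change of 0.05 ± 0.25. Its groups lay across the same range.

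The called ileal members were Rpl39, Rps27l and Rpl10. Rpl39, which lines the exit tunnel of the large subunit, had 117, 97.9 and 103 CPM at day 0 and 310.4, 90.2 and 225 CPM at day 8, so 1 of the 3 later samples was below all 3 earlier ones. Its log2 fold change was 0.98 ± 0.33, adjusted p = 0.0346, and the adjusted p was 0.329 without the day 8 sample numbered 1. Rps27l had 46.1, 38.3 and 32.97 CPM and then 102, 48.8 and 68.6 CPM, and rose by 0.90 ± 0.26, adjusted p = 0.0105 (0.167 without the same sample). Rpl10, which joins the large subunit in the last steps of its maturation, fell from 199.9, 171 and 224 to 129, 126 and 123 CPM without overlap, by -0.65 ± 0.21, adjusted p = 0.0273. That call was lost without the day 0 sample numbered 3, at an adjusted p of 0.118 by edgeR.

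The difference between the regions in this change was tested directly, by an interaction contrast added after both changes had been seen. For 24 members the day 8 change was smaller in the ileum than in the duodenum and for none larger, against 5.83% of all genes with a smaller change, and the median difference was -0.96 (all genes: 0.00). Rps13 differed by -1.23 ± 0.34, adjusted p = 0.0221, Rpl6 by -1.22 ± 0.34, adjusted p = 0.0223 and Rpl3, a protein beside the peptidyl transferase centre, by -1.22 ± 0.35, adjusted p = 0.0236 (log2, ileum minus duodenum). Rpl10 rose by an uncalled 0.50 in the duodenum while it fell in the ileum, and its difference was -1.15 ± 0.30, adjusted p = 0.0152. Rpl39 and Rps27l had differences near 0, at 0.08 ± 0.47 and 0.02 ± 0.36. The count of 24 fell to 0 without the duodenum day 0 sample numbered 2 and rose to 28 at most when other single libraries were left out.

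Over all 8 ages together, 25 members had an interaction of region and age, against 22.4% of all genes, and 63 had an unadjusted p under 0.05. The smallest adjusted p belonged to Rpl4, which reaches into the exit tunnel, at 0.0148, followed by Rps27a, made as a fusion with ubiquitin, at 0.0159, and by Rps26 and Rpl3, both at 0.016. In the duodenum, Rpl4 had 524, 527 and 659.7 CPM at day 0, 1187 and 1479 CPM at day 6 and 932, 553 and 703 CPM at week 4. In the ileum the same ages had 566, 573 and 522 CPM, 486 and 469 CPM and 469, 391 and 492 CPM. The regions overlapped at birth and were fully separate at day 6. The number of members called ran from 3, without duodenum day 6 number 2, to 67, without ileum day 4 number 2.

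**Figure D3:**
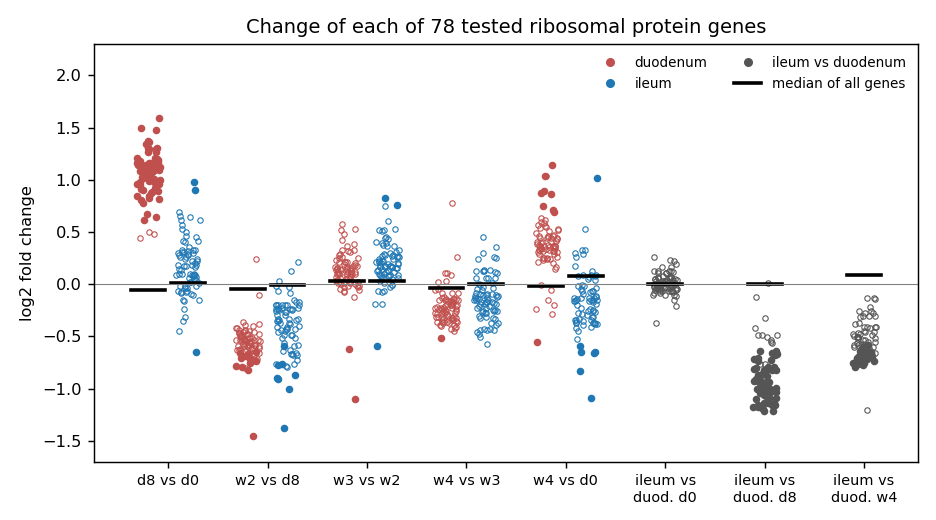
Log2 fold change (vertical axis) of each of the 78 tested members in 5 comparisons of ages per region (duodenum red, ileum blue) and in ileum against duodenum at 3 ages (grey), filled where called by edgeR, with a black bar at the median of all genes. From day 0 to day 8 every duodenal point lies above 0, up to 1.59, while the ileal points straddle 0, and the grey points leave 0 between day 0 and day 8.

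Ileum was next set against duodenum. Averaged over the 8 ages, all 78 members were lower in the ileum, where 30.2% of all genes were lower, and the median log2 difference was -0.68 (all genes: 0.08). The differences were narrowly spread, from -0.87 for Rps6 to -0.42 for Rps27l. The 4 largest were those of Rps6 (-0.87 ± 0.10, adjusted p = 8.45e-10), Rpl15 (-0.83 ± 0.10, adjusted p = 2.27e-09), Rpsa (-0.83 ± 0.10, adjusted p = 4.33e-09) and Rpl32 (-0.82 ± 0.11, adjusted p = 3.58e-08). This count stayed at 78 in every fit that was run, with any single library left out and under each other setting.

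No regional difference was detected at birth, with 3 samples a group. Some libraries of that age were also less far apart in regional markers. Onecut2 and Pdx1 summed to 135.6 CPM in duodenum number 1 and 96.3 CPM in ileum number 2. The part of this in the day 0 result was not tested. At day 0 no member was called by edgeR and none had an unadjusted p under 0.05, whereas 6.10% of all genes were called, and DESeq2 also called none. Log2 differences ran from -0.37 for Rps23 to 0.26 for Rps21, around a median of 0.00. At day 8, 65 members were lower in the ileum (22.6% of all genes) with a median of -0.93. Rps2, a small-subunit protein at the mRNA entrance, had 1118, 1034 and 1027 CPM in the duodenum and 513, 477 and 376 CPM in the ileum at day 8, a log2 difference of -1.22 ± 0.27, adjusted p = 0.000701. Rpl39, at 0.02, and Rps27l, at -0.12, were among the 13 members not called. At week 4, 28 members were lower in the ileum (13.9% of all genes), with a median of -0.58.

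The week 4 count rested on single libraries. It was 0 without duodenum week 4 number 1, 51 without duodenum week 4 number 2, 10 without number 3 there, and 14, 3 and 17 without ileum week 4 numbers 1, 2 and 3. Rps6 stood at 676, 376 and 537 CPM in the duodenum and 337, 273 and 330.02 CPM in the ileum at that age. The duodenum sample numbered 2 was the lowest of its group for Rps6, Rplp0 and Rpsa alike. All 78 members had a negative log2 difference at week 4, from -1.20 for Rps12 to -0.13 for Rpl5.

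Between day 8 and week 2 the level came down in both regions. In the duodenum 12 members fell, against 8.93% of all genes, with a median log2 fold change of -0.56 (all genes: -0.04). Rps12 fell by -1.45 ± 0.49, adjusted p = 0.039, from the day 8 values above to 109, 52.8 and 63.1 CPM. Rps2 fell by -0.83 ± 0.27, Rpl36al by -0.79 ± 0.23, Rpl5 by -0.78 ± 0.18 and Rpl12 by -0.74 ± 0.21 on the log2 scale. Rps20, Rps13, Rpl11, Rpl6, Rpl29, Rps26 and Rpl37 were also called. The duodenal count was 1 to 4 with any single library of these ages left out, and 72 (71 lower and 1 higher) when only the libraries of the 2 ages were modelled.

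In the ileum 8 members fell from day 8 to week 2 (2.47% of all genes), with a median of -0.37 (all genes: 0.00). These were Rpl39, Rps27l, Rpl22, Rpl36al, Rpl36a, Rpl30, Rps27a and Rpl5. Rpl39 fell by -1.38 ± 0.34, adjusted p = 0.0116, to 72.7, 87.02 and 80.9 CPM, and Rps27l by -1.003 ± 0.26, adjusted p = 0.0159, to 29.7, 39.5 and 40.3 CPM. At day 8, Rpl39 had been above all day 0 samples in 2 of 3 samples and Rps27l in all 3. No member was called without the day 8 sample numbered 1 or without the week 2 sample numbered 1.

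Week 3 was next set against week 2. Since it is not stated whether week 3 samples came before or after the move to chow, this comparison may not span it. Member levels as a whole moved little, with median log2 fold changes of 0.12 in the duodenum and 0.19 in the ileum (all genes: 0.03 in each). In the duodenum 2 members fell (10.6% of all genes fell), and in the ileum 2 rose, Rpl36al and Rps27l (12.9% of all genes rose), and 1 fell (13.9% of all genes fell). Rpl13a was one of those that fell in the duodenum, by -0.62 ± 0.22, adjusted p = 0.0428. It had 906, 576 and 631 CPM at week 2, against 549, 342 and 482 CPM a week later, without overlap, and its adjusted p was 0.294 without the week 2 sample numbered 1. Rpl36al had 44.6, 48.8 and 47.7 CPM at week 2, against 88.2, 84.8 and 76.6 CPM at week 3, in the ileum, with no overlap, and a log2 fold change of 0.82 ± 0.23, adjusted p = 0.006. Rps27l went from 29.7, 39.5 and 40.3 to 60.8, 68.6 and 55.6 CPM there, also without overlap, by 0.76 ± 0.26, adjusted p = 0.0251 (0.129 without the ileum week 2 sample numbered 1).

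From week 3 to week 4, Rpl5 fell in the duodenum, by -0.51 ± 0.18, adjusted p = 0.049, and no other member was called (4.96% of all genes fell). It went from 92.9, 77.5 and 82.3 to 68.7, 51.5 and 56.7 CPM, and its call was lost without any of 5 of the 6 libraries of these ages. In the ileum edgeR called no member, with 2 at an unadjusted p under 0.05, against 16.1% of all genes called. DESeq2 also called 0 and limma called 2 there.

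Week 4 was also set against day 0, across the whole span. In the duodenum 8 members rose (20.4% of all genes) and 1 fell (20.1%), with a median of 0.37 (all genes: -0.02) and 71 of 78 values above 0. In the ileum 1 rose (21.5%) and 6 fell (20.4%), with a median of -0.16 (all genes: 0.08) and 61 of 78 values below 0. Rps27l rose in both regions.

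The duodenal rises were led by Rps27l at 1.14 ± 0.26, adjusted p = 0.000443, Rpl27 at 1.03 ± 0.36, adjusted p = 0.0214, Rps21 at 0.89 ± 0.27, adjusted p = 0.00802 and Rpl12 at 0.88 ± 0.21, adjusted p = 0.00101. Rpl27 had 21.3, 21.04 and 15.1 CPM at day 0 and 52.5, 27.6 and 37.1 CPM at week 4. Its adjusted p was 0.108 without the duodenum week 4 sample numbered 1. Rps20, Rplp1, Rpl36al and Rpl41 also rose. Of these, Rplp1 went from 158, 144 and 147 to 312, 184 and 254 CPM, by 0.75 ± 0.27, adjusted p = 0.0239.

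In the ileum, Rps28 of the small subunit's head fell from 193, 150.1 and 126 to 86.7, 81.5 and 95.5 CPM, by -0.83 ± 0.22, adjusted p = 0.00194. Rpl28 fell from 345, 255 and 251 to 186, 174 and 179.8 CPM, by -0.66 ± 0.24, adjusted p = 0.0241 (0.137 without the ileum day 0 sample numbered 1). Rpl10 fell from the day 0 values above to 132, 111 and 136 CPM, by -0.65 ± 0.21, adjusted p = 0.014 (0.0669 without the ileum day 0 sample numbered 3). Groups did not overlap in any of the 3. Rpl13a and Rps13 fell as well, by -0.64 ± 0.22, adjusted p = 0.017 and -0.59 ± 0.24, adjusted p = 0.0484. The duodenal count of 9 became 4, 23, 4 and 31 without day 0 numbers 2 and 3 and week 4 numbers 1 and 2, and it was 46 by limma and 28 with the 40 samples of the normalized tables.

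Against this common course a few members kept one of their own. Relative to the mean of the members in the same sample, the median member varied with an SD of 0.15 (log2) over the 46 samples, and 61 of 78 were under 0.2. Rpl13, Rps19 and Rps26 tracked the rest most closely, with SDs of 0.065, 0.076 and 0.078. Among the widest were Rps12 at 0.66, Rps27l at 0.41, Rpl5 at 0.34, Rpl13a at 0.32, Rpl27 at 0.31 and Rpl39 at 0.31. The small subunit's members took 37.9% to 41.3% of the members' counts in any sample. Rpl13a is among 29 tested members that hold small nucleolar RNA genes, and these 29 had a median log2 fold change of 1.07 from day 0 to day 8 in the duodenum, where the 49 others had one of 1.09.

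Rps27l, a duplicate of Rps27 and a known p53 target gene, had its highest duodenal mean at week 4. In the duodenum it had 40.3, 41.5 and 48.1 CPM at day 0, 80.4, 77.5 and 81.1 CPM at day 8, 47.2, 64.2 and 55.4 CPM at week 2, with 101, 81.9 and 104 CPM for week 4. In the ileum it had 46.1, 38.3 and 32.97 CPM at day 0 and 89.3, 76.9 and 71.1 CPM at week 4. In both regions every week 4 sample lay above every day 0 sample, and the ileal log2 fold change was 1.02 ± 0.26, adjusted p = 0.00157. Rps27 had 20.7, 14.8 and 12.6 CPM at day 0 and 24.8, 16.1 and 22.3 CPM at week 4 in the duodenum, with log2 fold changes of 0.39 ± 0.29, adjusted p = 0.289 there and 0.09 ± 0.29, adjusted p = 0.837 in the ileum.

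Of the summed CPM of Rps27l and Rps27, Rps27l held 73.00% ± 6.60 (SD, n = 3) at day 0 in the duodenum. Its group means there lay between 67.5% and 75.4% from day 0 to week 2, and week 3 gave 79.5% ± 6.00 and week 4 82.1% ± 1.66 (SD, n = 3 each). The ileal percentage moved up and down, from 68.9% ± 3.40 on the day of birth to 77.7% ± 2.81 at day 2 and 77.2% ± 0.997 at day 8, then to 68.3% ± 1.43 at week 2 and 80.4% ± 6.39 by week 4 (SD, n = 3 each), and its day 4 mean was 78.9%. The other such pair is Rpl36al with Rpl36a. Rpl36al held 39.8% ± 0.647 of that pair at birth, 42.7% ± 0.890 at day 2, 34.01% ± 1.02 at week 2 and 46.3% ± 3.15 at week 4 in the duodenum (SD, n = 3 each), with its lowest mean, 28.6%, at day 6 (n = 2). In the ileum it held 38.3% ± 1.60, 43.5% ± 3.26, 37.1% ± 0.732 and 45.4% ± 3.88 at birth, day 2, week 2 and week 4 (SD, n = 3 each), and the day 4 mean, 44.9%, was near that of week 4. Over the whole span in the duodenum Rpl36al rose by 0.71 ± 0.23, adjusted p = 0.0118, while Rpl36a had 0.36 ± 0.26, adjusted p = 0.268. These percentages were not tested, are of counts, are not corrected for length, and depend on how reads shared by such near-identical copies were divided. Rpl3l, Rpl10l and Rpl39l held at most 0.0949% of the CPM of their pairs with Rpl3, Rpl10 and Rpl39 in any group mean.

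Some departures belonged to single libraries. Duodenum day 4 number 3 and ileum day 4 number 2, the libraries with member shares of 6.00% and 3.45%, had low Rpl5, at -1.74 and -0.94 on the log2 scale. Such values were taken relative to the mean of the tested members in the same sample. They are distances from the gene's own median of that measure over all samples used. Rpl23 stood at -1.20 and -0.80, Rps12 at -0.90 and -1.04, and Rpl30 at -0.63 and -0.49 in the same libraries. For Rpl5 this meant 69.6, 97.7 and 48.2 CPM in the 3 duodenum day 4 samples, while Rplp0 had 729, 980.3 and 2002 CPM in them. These libraries also had the highest red blood cell marker sums (Hbb-bs, Hba-a1, Alas2 and Slc4a1) of their groups, 359, 354 and 2872 CPM in the duodenum and 60.1, 675 and 330.4 CPM in the ileum. The part of red blood cell RNA in their member levels was not tested. No comparison of single ages above has day 4 as an arm, but the tests over all ages, the regional average, the ages of the highest means and the estimate of spread include them. Libraries that are arms of single-age comparisons departed as well. In ileum day 8 number 1, Rpl39 stood at 1.16 and Rpl10 at -0.69 on the same scale. Mitochondrial transcripts took 32.7% of its counts, against 18.0% and 23.7% in the rest of its group. In duodenum day 0 number 3, Rpl27 stood at -0.94 and Rps23 at 0.80. Its red blood cell markers summed to 1939 CPM, against 430 and 984 CPM in the rest of its group. Mitochondrial transcripts took 29.8% of its counts, against 17.3% and 23.0%. Its members summed to 19703 CPM, against 15688 and 15768 CPM. The part of either in its member levels was not tested. Without this library, 76 members were called for day 8 against day 0 in the duodenum.

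Genes that work with the ribosomal proteins were counted in lists. In the duodenum from day 0 to day 8, 12 of 14 further genes whose mRNAs are known to carry a TOP tract, mostly translation factors, rose and none fell (median 0.89), as did 5 of 7 further ribosomal protein genes outside the name pattern (median 0.70), led by Rps3a1 at 1.28 ± 0.24 and Rack1 at 1.27 ± 0.27. All 28 ribosome assembly factors rose (median 1.41), led by Dkc1, the pseudouridine synthase of small nucleolar particles, at 2.28 ± 0.26 and Fbl, the matching methyltransferase, at 2.23 ± 0.29. Of 8 genes of RNA polymerase I and its cofactors 7 rose (median 1.299), with Tcof1 at 2.12 ± 0.27. Among 78 genes of the separate mitochondrial ribosome 65 rose and none fell (median 0.82). Of 63 testable ribosomal protein pseudogenes 11 rose, a smaller part than the 22.0% of all genes, and 1 fell (median 0.90), and pseudogene counts came to 3.5% to 5.2% of the members' counts in every sample.

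Regulators of this growth program did not move as one. Of 10 such genes, Myc, which drives ribosome production in growing cells, rose by 1.93 ± 0.24 and Larp1 by 0.92 ± 0.16 in the duodenum, while Eif4ebp3, an inhibitor of cap-dependent translation, fell by -3.22 ± 0.39 and Rps6kb2, an S6 kinase, by -0.51 ± 0.18. In the ileum, where 8.56% of all genes rose, Myc rose by 1.18 ± 0.24 and 3 of the 10 fell. There, 13 of 28 assembly factors rose (median 0.59), with Dkc1 at 1.36 ± 0.25 and Nop56 at 1.21 ± 0.24, and so did 11 of 78 mitochondrial ribosomal protein genes (median 0.19). One of the 14 further TOP genes rose, Hnrnpa1, an RNA-binding protein of mRNA splicing, at 0.74 ± 0.21, and Fau, whose product is cleaved to a small-subunit protein, fell by -0.65 ± 0.22. Averaged over ages, all 14 further TOP genes, all 28 assembly factors and all 8 polymerase I genes were lower in the ileum, as were 77 of 78 mitochondrial ribosomal protein genes, with Mrpl23 the exception at 0.35 ± 0.11.

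From day 8 to week 2 in the duodenum all 28 assembly factors fell (median -0.97), against 3 of the 14 further TOP genes (median -0.41) and 39 of 78 mitochondrial ribosomal protein genes (median -0.56). From day 0 to week 4, Mycn, a relative of Myc active in embryonic tissue, fell by -2.73 ± 0.22 in the duodenum and by -3.75 ± 0.24 in the ileum.

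**Figure D4:**
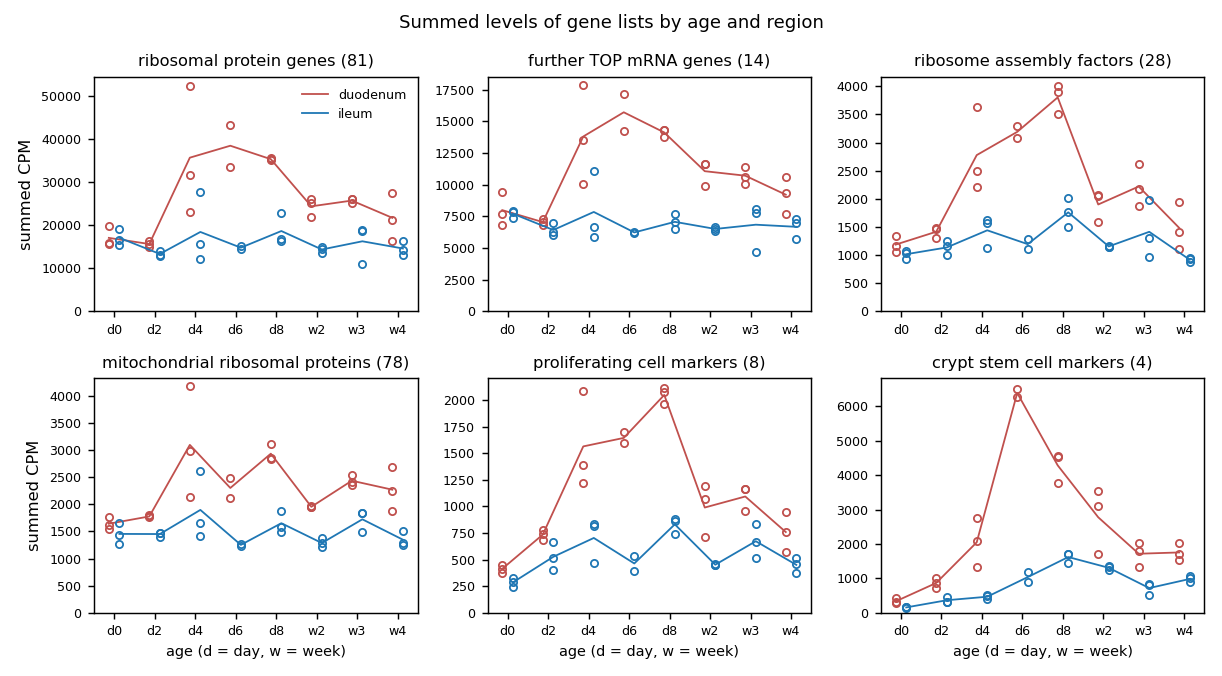
Summed CPM (vertical axes, from 0) of 6 gene lists by age, one circle per sample with lines through group means (duodenum red, ileum blue). The TOP, assembly and mitochondrial ribosome lists and the proliferation markers have higher means in the duodenum than in the ileum from day 4 to day 8, as the 81 members do.

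Markers of dividing and crypt cells also changed with age and differed between regions. All 8 proliferation markers (Mki67, Top2a, Pcna, Mcm2, Mcm5, Ccnb1, Cdk1 and Birc5) rose from day 0 to day 8 in both regions, with medians of 2.20 in the duodenum and 1.40 in the ileum, and all 8 were lower in the ileum averaged over ages, with a median of -0.99. Their sum ran from 376 to 2112 CPM in duodenum and from 237 to 886 CPM in ileum samples, and Mki67 had group means of 142 and 745 CPM at day 0 and day 8 in the duodenum and 100.2 and 295 CPM in the ileum. The 4 crypt stem cell markers (Lgr5, Olfm4, Ascl2 and Smoc2) rose in both regions, with medians of 3.43 and 2.92, and summed to 269 to 6500 CPM and 122 to 1720 CPM. Over the same days in the ileum 2 of the 78 members rose and 1 fell, where 8.56% of all genes rose and 10.7% fell. At week 3 against week 2, 3 of these 4 crypt markers fell in each region. In the ileum all 5 smooth muscle and all 4 fibroblast markers were higher than in the duodenum, with medians of 1.83 and 2.05, at sums of 10.85 to 158 and 65.6 to 546 CPM. All 4 red blood cell markers and 5 of 6 pancreatic acinar markers were lower in the ileum. No defining marker of the proliferating or crypt lists was at 0 in any group mean, and the part of cell makeup in the members' levels was not tested.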

How the data were processed

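Gene symbols and values came from tables of the whole series. The authors' deposited table of estimated counts per gene was summarised with tximport, per the file headers' own name for it, and holds whole numbers. The authors' deposited normalized signal, for 40 of the 48 samples, equals the estimated count divided by one factor per column. The submitters' processing notes name STAR 2.6.1d, Salmon 0.14.2, DESeq2 1.30.1 and the build mm10, with no roles. Estimated counts divide reads shared by near-identical genes by a model, so pseudogenes and duplicates bear on member values.

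Counts of 46 samples were fitted in edgeR 4.0.16 (R 4.3.3): filterByExpr on 16 groups (21986 genes kept), TMM scaling, a robust quasi-likelihood fit with one mean per group, and contrasts adjusted by Benjamini-Hochberg over all genes kept. Standard errors (± beside a log2 fold change) are the fold change over the square root of F. Alternatives were RLE factors, scaling without members and mitochondrial genes, other filters, all 48 or the 40 samples, a replicate block, only the compared groups, single libraries left out, DESeq2 1.42.0, and limma 3.58.1 on log2 of the deposited signal plus 1. The edgeR and permutation steps were tested on simulated data. The members and lists were chosen with earlier results of these data known.

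Members named with values were Rplp0, Rplp1, Rplp2, Rpsa, Rps6, Rps19, Rpl5, Rpl11, Rpl13a and Rpl38 for their roles, the duplicate-type members with their partners, and the largest called changes: 4 each way per region for week 4 against day 0 and for week 3 against week 2, 3 each way for day 8 against day 0, 4 for the regional average and 4 by smallest interaction p. Of each other list, at most 2 called genes each way were named. Rps12, Rpl4's course and library-specific values were singled out after their values were seen. Start windows came from RefSeq (GRCm38.p6), and small nucleolar RNA genes within members from GENCODE M21. Some members chosen by these rules are not reported here.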

Additional observations from a re-analysis of the deposited data

Results flagged for a closer look

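Effects of age that differed between duodenum and ileum were picked out by edgeR's test of the difference itself. From day 0 to day 8 the change of 24 members differed between the regions, in each case with a smaller value in the ileum, against 5.83% of all genes. That count fell to 0 without the duodenum day 0 sample numbered 2. Rps13 differed by -1.23 on the log2 scale (ileum minus duodenum), with CPM of 149, 118 and 175 at day 0 and 311, 317 and 309 at day 8 in the duodenum against 188, 134 and 143 and 151, 131 and 138 in the ileum. Rpl6 differed by -1.22, with 337, 316 and 475 and then 851, 841 and 795 CPM in the duodenum against 418, 342 and 372 and 401, 357 and 314 CPM in the ileum. Rpl3 differed by -1.22, with 344, 377 and 421 and then 950.2, 926 and 951 CPM in the duodenum against 408, 411 and 351 and 467, 432 and 349 CPM in the ileum. Over all 8 ages, 25 members had an interaction of region and age, against 22.4% of all genes, and 3 to 67 were called with single libraries left out.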

How the results depend on the processing

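The comparisons that kept their side under every setting were the duodenal age effect (77 to 78 members called, 76 to 78 with single libraries left out), day 8 against day 0 in the duodenum (72 to 78, and 69 to 76), the regional average (78 throughout), day 0 between regions (0 throughout) and day 8 between regions (55 to 71, and 52 to 71). The smaller counts depended on the fit. With all 48 samples, which brings back the day 6 samples of doubtful region, members called were 3 for the ileal age effect, 5 (duodenum) and 4 (ileum) for week 4 against day 0, 1 for day 8 against day 0 in the ileum, 1 and 1 for week 2 against day 8, 1 and 1 for week 3 against week 2, 0 for week 4 against week 3 in the duodenum, and 0 for week 4 between regions, for the interaction and for the regional difference in the day 8 change. The 40 samples of the normalized tables, which limma also used, include none of day 4. Age effects, the regional average and the interaction over these samples therefore cover the other ages alone. In edgeR these 40 gave, in the same order, 39, 28 and 17, 10, 51 and 18, 6 and 11, 2, 51, 73 and 56. Week 4 against week 3 in the ileum gave 4 with them. With only the groups compared, counts were 8 for the ileal age effect, 72 and 20 for week 2 against day 8, 9 and 9 for week 3 against week 2, 0 for week 4 between regions and 53 for the difference in the day 8 change. limma gave 24 for the ileal age effect, 46 for week 4 against day 0 in the duodenum, 5 for day 8 in the ileum, 54 and 13 for week 2, 8 and 10 for week 3, and 3 and 2 for week 4 against week 3, and was not run between regions. DESeq2 gave 5 for day 8 in the ileum, 13 for week 2 and 5 for week 3 in the ileum, and 47 for the interaction. RLE factors gave 6 for week 2 in the duodenum, 15 for week 4 between regions and 14 for the difference in the day 8 change. Without the low-count filter these were 5 for week 2, 1 for week 3 and 0 for the last step in the duodenum, and 15 for the difference in the day 8 change. A mean count of at least 10 gave 13 for week 4 between regions and 43 for the interaction, and scaling without members and mitochondrial genes gave 15 for the interaction. The cause of these shifts was not tested, and neither scaling moved the median of all genes by more than 0.1.

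With single libraries left out, counts ran from 5 to 31 for the ileal age effect (31 and 21 without day 4 numbers 1 and 2, 5 without day 8 number 1), 4 to 31 (duodenum) and 4 to 8 (ileum) for week 4 against day 0 (4 without ileum day 0 number 1 or week 4 number 2), and 0 to 7 for day 8 in the ileum (1, 0, 0, 7 and 1 without day 0 numbers 1 and 3 and day 8 numbers 1, 2 and 3). They ran from 1 to 4 and 0 to 12 for week 2 in duodenum and ileum (in the ileum 0 and 5 without day 8 numbers 1 and 3, 0, 3 and 1 without week 2 numbers 1, 2 and 3), 1 to 2 and 1 to 5 for week 3 (1 without duodenum week 2 number 1, week 3 number 2 or 3, or ileum week 2 number 1, and 5 without ileum week 3 number 3), and 0 to 2 and 0 to 4 for week 4 against week 3 (4 without ileum week 3 number 3). They ran from 0 to 51 for week 4 between regions, 3 to 67 for the interaction, where 26 of 46 stayed within 1.5 times the count, and 0 to 28 for the difference in the day 8 change. Values under the named comparisons kept their sign in all 317 settings, and 40 of them lost the call. Taking all counts as the denominator, the share in the ileum at weeks 3 and 4 differed by -0.348 points from earlier ages, with an exact permutation p of 0.0396.

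The replicate block, which joins samples by their number, gave 5 members for week 2 in the ileum, 0 for week 4 against week 3 in the duodenum and 42 for the difference in the day 8 change, and it moved no other count of members by over 1.5 times. Over 23 pairs of duodenum and ileum samples with one age and number, the correlation of deviations from group means over 12415 genes averaged 0.155, from -0.363 to 0.672, and 16 were over 0.1. The mean for samples of one age and different numbers was -0.0790. Centring on group means ties this value to the same-number mean, so it is not a separate comparison. Since the pairs were not all over 0.1, the numbers were not taken to pair samples, but this check cannot settle whether they do. Groups held 3 samples, or 2 at day 6. Of the members, only Rpl10l, Rpl39l and Rpl3l were under the low-count filter, and the part of depth in the other results was not tested.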
